A study of Mus musculus with 12 samples.

Results

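The bone morphogenetic protein (BMP) ligands and receptors of the mouse lung were followed across the cell classes of a single-nucleus RNA-seq experiment. The members were taken by symbol and not by their values: the ligands Bmp3, Bmp4, Bmp5 and Bmp6, the secreted regulator Bmper, the receptors Bmpr1a, Bmpr1b, Acvrl1 and Bmpr2, and the coreceptor Eng, 10 of the 31053 genes counted. Lungs came from 12 C57BL/6J mice, aged 7 weeks when bleomycin or PBS was given, with 1 library per mouse and 3 mice per group. Mice received bleomycin, which injures the lung and is used as a model of fibrosis, or PBS through the trachea, followed from day 5 for 5 days by oral NVP-BHG712, a small-molecule inhibitor of the receptor tyrosine kinase EphB4, or by its vehicle. The groups are PBS_vehicle, PBS_NVP, Bleo_vehicle and Bleo_NVP, and lungs were taken at day 14. No animal carried an engineered allele. Nuclei were sorted from frozen lungs with a DNA stain, so the counts describe nuclear RNA.

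BMPs are secreted growth factors of the TGF-beta superfamily. A ligand dimer binds a complex of type I receptors (here Bmpr1a, Bmpr1b and Acvrl1) and type II receptors (here Bmpr2), the type II kinase activates the type I kinase, and the latter phosphorylates Smad1, Smad5 and Smad9, which enter the nucleus with Smad4 and act on genes such as those of the Id family. Secreted proteins such as Bmper bind the ligands outside the cell, and Eng presents ligand to Acvrl1 on endothelium. In the lung the pathway is best known for its role in the vessel wall, where inherited loss of BMPR2 causes pulmonary arterial hypertension and loss of ACVRL1 or ENG causes hereditary haemorrhagic telangiectasia.

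After filtering and doublet removal, 44611 of 49163 barcodes were used, and 42781 of them fell into 20 classes named from marker genes. The names are therefore to be read as AT1-like, fibroblast-like and so on. The marker lists held no member and no other gene of the BMP pathway. One class matched the marker list of fibroblasts in general best, with 9 of 12 markers raised. It is called the Agtr1b-Itgbl1 fibroblast class after its leading genes. That list shares genes with the lists of single fibroblast types, so the name does not exclude such a type. The libraries held 3556084 to 61947688 unique molecular identifiers (UMIs), and 324 barcode sequences occurred in more than 1 library. Levels are given in CPM, the UMIs of a gene as a share of all UMIs of the class in a library, on the usual scale in which all genes sum to 1e6. Because reads came from transcript ends, levels were compared between classes and not between genes.

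The Bleo_vehicle libraries stood apart. Their median mitochondrial share per barcode was 0.668% to 2.56%, against 0.0496% or less in the other 9 libraries, and 2 of them had the lowest median UMIs per barcode, 925 and 1253. Their labels carry batch numbers 6, 6 and 7, the Bleo_NVP libraries share run number 4, and the PBS libraries come from runs 1 to 3. For each comparison with a bleomycin group, batch and group cannot be told apart. Within several classes, markers of other classes were also more abundant in Bleo_vehicle, and their values are given beside the results they touch.

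Bmp5 and Bmper are shown with the sequence before their start sites, since both were called higher in Bleo_NVP than in Bleo_vehicle alveolar fibroblasts. Both lie on chromosome 9 (GRCm38, GENCODE annotation): Bmp5 at chr9:75775364-75900310 and Bmper at chr9:23223076-23485200, each on the plus strand. The 250 bases before the RefSeq start (GRCm38.p6), 5′ to 3′, lie at chr9:75775115-75775364 for Bmp5 and at chr9:23222826-23223075 for Bmper. They are printed in lower case, and no letter is in capitals because neither motif searched was found.
Bmp5: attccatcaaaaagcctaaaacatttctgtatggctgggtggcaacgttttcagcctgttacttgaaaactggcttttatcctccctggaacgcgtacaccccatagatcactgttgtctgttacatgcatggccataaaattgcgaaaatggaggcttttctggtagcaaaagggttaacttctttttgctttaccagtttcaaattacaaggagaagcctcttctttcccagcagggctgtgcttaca
Bmper: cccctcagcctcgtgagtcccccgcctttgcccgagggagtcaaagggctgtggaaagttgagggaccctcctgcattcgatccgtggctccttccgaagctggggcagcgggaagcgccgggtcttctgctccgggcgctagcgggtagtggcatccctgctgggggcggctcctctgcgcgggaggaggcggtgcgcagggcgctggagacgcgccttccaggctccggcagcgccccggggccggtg
The Bmp5 stretch had a GC content of 42.8% and the Bmper stretch one of 71.6%. The motifs searched on both strands were GGCGCC, the GC-rich sequence described for BMP Smads, which was in 9.59% of all RefSeq promoter stretches, and TATAAA, which was in 12.4%. Neither motif was in the Bmp5 or Bmper stretch, which says only that these letters are not in these windows. Among the other members, GGCGCC occurred once each in Bmpr1a and Bmpr2.

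The remaining members were scattered over the genome. On GRCm38, Bmp3 lies at chr5:98854415-98884396, Bmp4 at chr14:46383520-46390669, Bmp6 at chr13:38345107-38500302, Bmpr1a at chr14:34410734-34503341, Bmpr1b at chr3:141837136-142169425, Bmpr2 at chr1:59763400-59879014, Acvrl1 at chr15:101128522-101145336 and Eng at chr2:32646595-32682669. No gene overlapping a member on its strand was listed in the files.

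The members divided the lung among them. Of the ligands, Bmp5 was highest in fibroblast classes and Bmp6 in endothelium. Bmper was highest in alveolar fibroblasts, Bmpr1b in club cells, Bmpr1a in mesothelium, and Bmpr2, Acvrl1 and Eng in endothelium. Levels were ordered over the 17 classes with at least 20 nuclei in at least 8 libraries, and each class was compared with the next by an exact two-sided sign-flip permutation test over the libraries holding both, with Benjamini-Hochberg adjustment over the 160 pairs. Of these neighbouring pairs 13 passed at 0.05, and the leading class passed against the next for 3 of the 10 members, namely Bmp5, Bmp6 and Bmpr2.

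**Figure D1:**
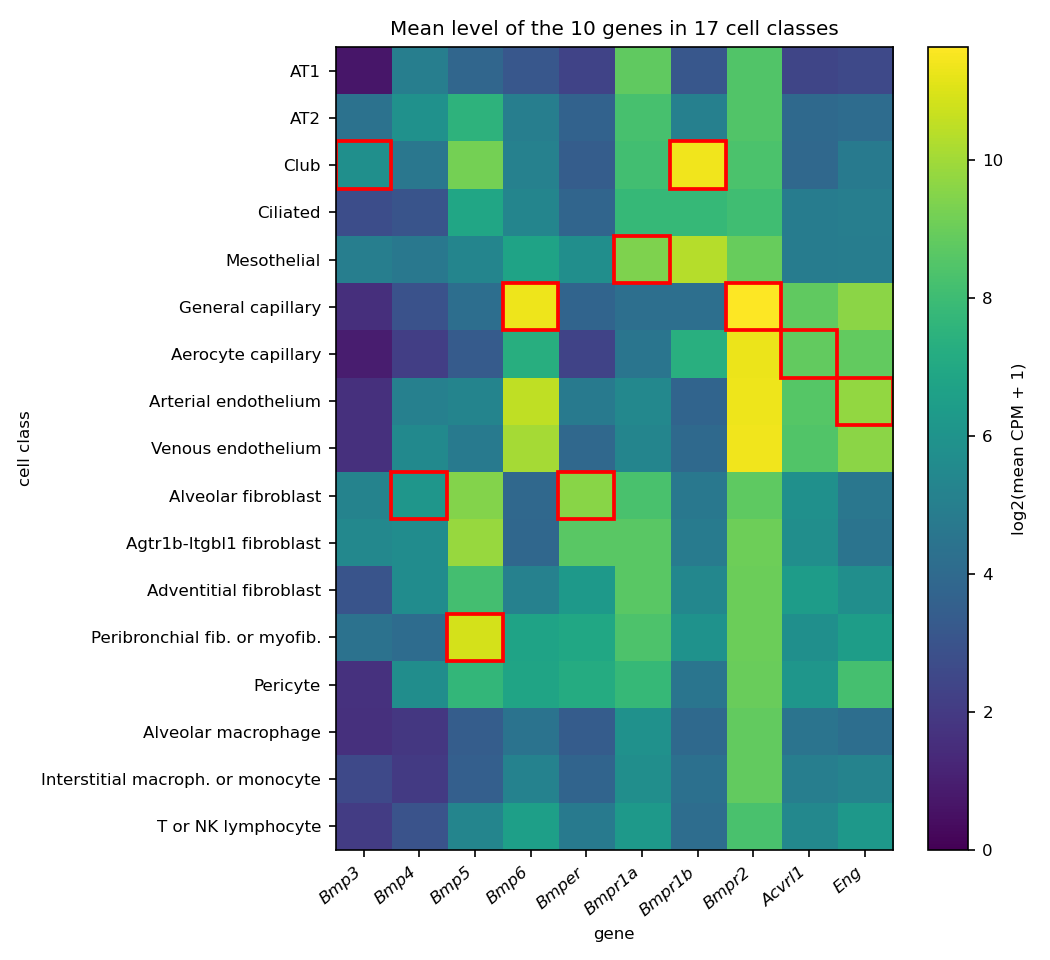
Mean level of each BMP ligand, regulator and receptor in 17 cell classes, as log2(mean CPM + 1), the mean being taken over the means of the 4 groups. The red box marks the class with the highest level of each gene; Bmp6, Bmpr2, Acvrl1 and Eng peak in endothelial classes, and Bmp5 and Bmper in fibroblast classes.

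Bmp5, a ligand of the Bmp5, Bmp6 and Bmp7 subgroup, reached a mean of 1868 CPM in peribronchial fibroblasts or myofibroblasts, with a lowest library at 356, a median of 2004 and a highest at 2870 CPM over 10 libraries. The Agtr1b-Itgbl1 fibroblasts followed at 930 CPM, and the peribronchial class was higher in 9 of 10 libraries, by 0.91 on the log2 scale (exact permutation p = 0.0039, adjusted p = 0.0481). Alveolar fibroblasts came next at 711 CPM, below the Agtr1b-Itgbl1 class in 12 of 12 libraries (exact permutation, adjusted p = 0.0156). Club cells, the secretory cells of the airway, held 585 CPM and adventitial fibroblasts 288 CPM, and these 2 classes also differed (exact permutation, adjusted p = 0.0347). A UMI of Bmp5 was seen in 73.3% of peribronchial, 72.7% of Agtr1b-Itgbl1 and 62.1% of alveolar fibroblast nuclei, against 2.16% of aerocyte capillary nuclei.

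Bmp6, known outside the lung as the endothelial ligand that sets hepcidin expression in the liver, had 72.1% of its 41709 UMIs in general capillary nuclei. The mean there was 2594 CPM (lowest library 373, median 2824, highest 3760). Arterial endothelium followed at 1483 CPM, lower in 10 of 10 libraries by a mean of 0.86 on the log2 scale, and venous endothelium at 1089 CPM; both steps passed (exact permutation, adjusted p = 0.0347 each). The second capillary type, the aerocyte, stood far below the other blood vessel classes at 158 CPM, 2.60 log2 units under venous endothelium (exact permutation, adjusted p = 0.0156). A UMI of Bmp6 was found in 81.4% of general capillary nuclei and in 3.92% of AT1 nuclei.

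Bmp3 and Bmp4 were scarce. Bmp3, an atypical ligand that antagonises other BMPs, had 2324 UMIs in all and was highest in club cells at 53.9 CPM (lowest library 0, median 52.7, highest 117), ahead of Agtr1b-Itgbl1 fibroblasts at 42.4 and alveolar fibroblasts at 36.3 CPM. Bmp4, a ligand of lung bud outgrowth, had 5660 UMIs and was highest in alveolar fibroblasts at 68.1 CPM (lowest library 27.0, median 70.8, highest 171), followed by AT2 cells at 58.4, pericytes at 50.7 and adventitial fibroblasts at 50.1 CPM. The leading class did not pass against the next for either gene (exact permutation, adjusted p = 0.956 for Bmp3 and 0.936 for Bmp4).

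Bmper, which binds BMPs outside the cell and can raise or lower their signalling, had 72.4% of its 20952 UMIs in alveolar fibroblasts. Its mean there was 765 CPM (lowest library 317, median 813, highest 1252). Agtr1b-Itgbl1 fibroblasts held 401 CPM, lower in 10 of 12 libraries, a step that missed the threshold (exact permutation, adjusted p = 0.0595), and pericytes held 143 CPM. A UMI of Bmper was seen in 59.5% of alveolar fibroblast nuclei and in 0.898% of aerocyte nuclei.

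The type I receptors Bmpr1a and Bmpr1b had different leading classes and shared others. Bmpr1a, the broadly used type I receptor, was highest in mesothelium, the cell sheet that covers the lung, at 665 CPM over 8 libraries (lowest 283, median 600, highest 1026), with AT1 cells at 446, Agtr1b-Itgbl1 fibroblasts at 400 and adventitial fibroblasts at 398 CPM; it was lowest in general capillaries at 18.3 CPM. Bmpr1b was highest in club cells at 2672 CPM (lowest library 988, median 2867, highest 3558), which held 73.1% of its UMIs. Mesothelium followed at 1309 CPM, ciliated cells at 223 and aerocytes at 160, and the lowest class was AT1 at 7.95 CPM. A UMI of Bmpr1a was seen in 66.2% and one of Bmpr1b in 62.0% of mesothelial nuclei, and in club nuclei these shares were 48.7% and 89.0%. For both genes the leading class was above the next in 8 of 8 libraries, with the exact permutation p of 0.00781 that is the smallest 8 libraries allow, and an adjusted p of 0.0595. The mesothelial lead of Bmpr1a passed to AT1 when sums were scaled by TMM over all classes and when only the stricter nuclei were used.

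Acvrl1, the type I receptor of endothelium, was found in all 4 blood vessel classes at similar levels. Aerocytes held 462 CPM (lowest library 379, median 449, highest 606), general capillaries 443, arterial endothelium 381 and venous endothelium 353 CPM. The first of these steps did not pass (exact permutation, adjusted p = 0.591), whereas the step from venous endothelium to adventitial fibroblasts, at 84.2 CPM, was 2.21 log2 units (exact permutation, adjusted p = 0.0347). The lowest class was AT1 at 4.37 CPM.

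Bmpr2, the type II receptor, had the most UMIs of the members, 122833. General capillaries held 3180 CPM (lowest library 1740, median 3331, highest 4131), above venous endothelium at 2711 CPM in 10 of 12 libraries by 0.24 log2 units (exact permutation, adjusted p = 0.0391). Arterial endothelium held 2622 and aerocytes 2547 CPM, and the fall to the next class, the Agtr1b-Itgbl1 fibroblasts at 540 CPM, was 2.24 log2 units (exact permutation, adjusted p = 0.0156). Bmpr2 was not restricted to vessels, and its lowest class, ciliated cells, still held 271 CPM. Alveolar macrophages held 454 CPM.

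Eng, the endothelial coreceptor, was highest in arterial endothelium at 858 CPM over 10 libraries (lowest 482, median 890, highest 1176), with venous endothelium at 794 and general capillaries at 778 CPM. The arterial and venous levels did not pass against each other (exact permutation, adjusted p = 0.588), and the leading class became the general capillaries under TMM over all classes. Aerocytes held 454 CPM, 0.73 log2 units below general capillaries (exact permutation, adjusted p = 0.0156), pericytes 294 and AT1 cells, the lowest, 4.84 CPM. Thus, of the blood vessel classes, aerocytes had the lowest means of Bmp6, Eng and Bmpr2, with Bmpr2 near its level in arterial endothelium. Their Acvrl1 mean was the highest but did not pass against that of general capillaries.

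Free RNA leaves UMIs of abundant genes in nuclei that do not make them, and alveolar macrophages were taken as a class that should lack most members. Their means were 2.04 CPM for Bmp3, 2.68 for Bmp4, 9.68 for Bmp5, 20.4 for Bmp6, 9.30 for Bmper, 14.9 for Bmpr1b, 21.2 for Acvrl1 and 17.2 for Eng. Levels of this size in other classes are read as background. Bmpr1a at 59.0 CPM stood higher there.

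Each member was also matched to the 3 genes whose log2(CPM + 1) correlated best with it over the 17 classes, among 12840 genes. The classes share libraries, so these correlations are descriptions. For the ligands and Bmper the closest genes were Gpam with Bmp3 (Pearson r = 0.892), Snx33 with Bmp4 (0.905), Ptk7 with Bmp5 (0.902), Acer2 with Bmp6 (0.964) and Ednra with Bmper (0.958). For the receptors they were Neo1 with Bmpr1a (0.940), Vtcn1 with Bmpr1b (0.902), Ecscr with Bmpr2 (0.958), Tmem100 with Acvrl1 (0.970) and Ace with Eng (0.961). The next ranked were Socs2 and Rad51b for Bmp3, Kank2 and Tnks1bp1 for Bmp4, Dmd and Serpine2 for Bmp5, Adgrl4 and Ptprb for Bmp6, and Nox4 and Cdo1 for Bmper. For the receptors they were Ppl and Rgma for Bmpr1a, Ppp2r2b and Nfe2l3 for Bmpr1b, Kif26a and Edc3 for Bmpr2, Fmo1 and Ldb2 for Acvrl1, and Adcy4 and Shank3 for Eng.

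Groups were compared within 14 classes on UMIs summed per class and library, with the quasi-likelihood test of edgeR and Benjamini-Hochberg adjustment over all genes tested in the class. Of the 140 pairs of member and class, 87 passed the filter on low counts: Bmpr2 in 14 classes, Bmp6 and Eng in 11 each, Bmpr1b in 10, Bmpr1a and Acvrl1 in 9 each, Bmp5 in 8, Bmper in 6, Bmp4 in 5 and Bmp3 in 4. Between Bleo_vehicle and PBS_vehicle, which asks what bleomycin did without the inhibitor, 3 pairs were called, 1 higher and 2 lower, or 3.45% of those tested. The background over all genes and classes was 3.1%, or 2.39% higher and 0.712% lower. Between Bleo_NVP and Bleo_vehicle, which asks what the inhibitor did after bleomycin, 11 were called, 4 higher and 7 lower, or 12.6% against a background of 3.61% (1.03% higher and 2.58% lower). These 2 comparisons share the Bleo_vehicle libraries. Without overlap between groups were 35 pairs in the first comparison (40.2%, background 20.7%) and 36 in the second (41.4%, background 26.1%).

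No member was called between PBS_NVP and PBS_vehicle by edgeR's quasi-likelihood test (background 0.0%, 2 pairs at an unadjusted p under 0.05) or by DESeq2. The replicate numbers paired the samples in that comparison, and a fit with the number as a block also called 0. None was called between Bleo_NVP and PBS_NVP either (background 0.0%, 3 pairs at an unadjusted p under 0.05), the bleomycin comparison that does not use the Bleo_vehicle libraries. The interaction, which asks whether the inhibitor acted differently after bleomycin than after PBS, called 0 members (background 0.345%, of which 0.0396% higher and 0.305% lower, 24 pairs at an unadjusted p under 0.05), while DESeq2 called 2. Its smallest adjusted p-values were 0.0792 for Bmp5 in Agtr1b-Itgbl1 fibroblasts (log2 difference 1.17 ± 0.26, SE) and 0.0962 for Bmp5 in alveolar fibroblasts (1.33 ± 0.35, SE).

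**Figure D2:**
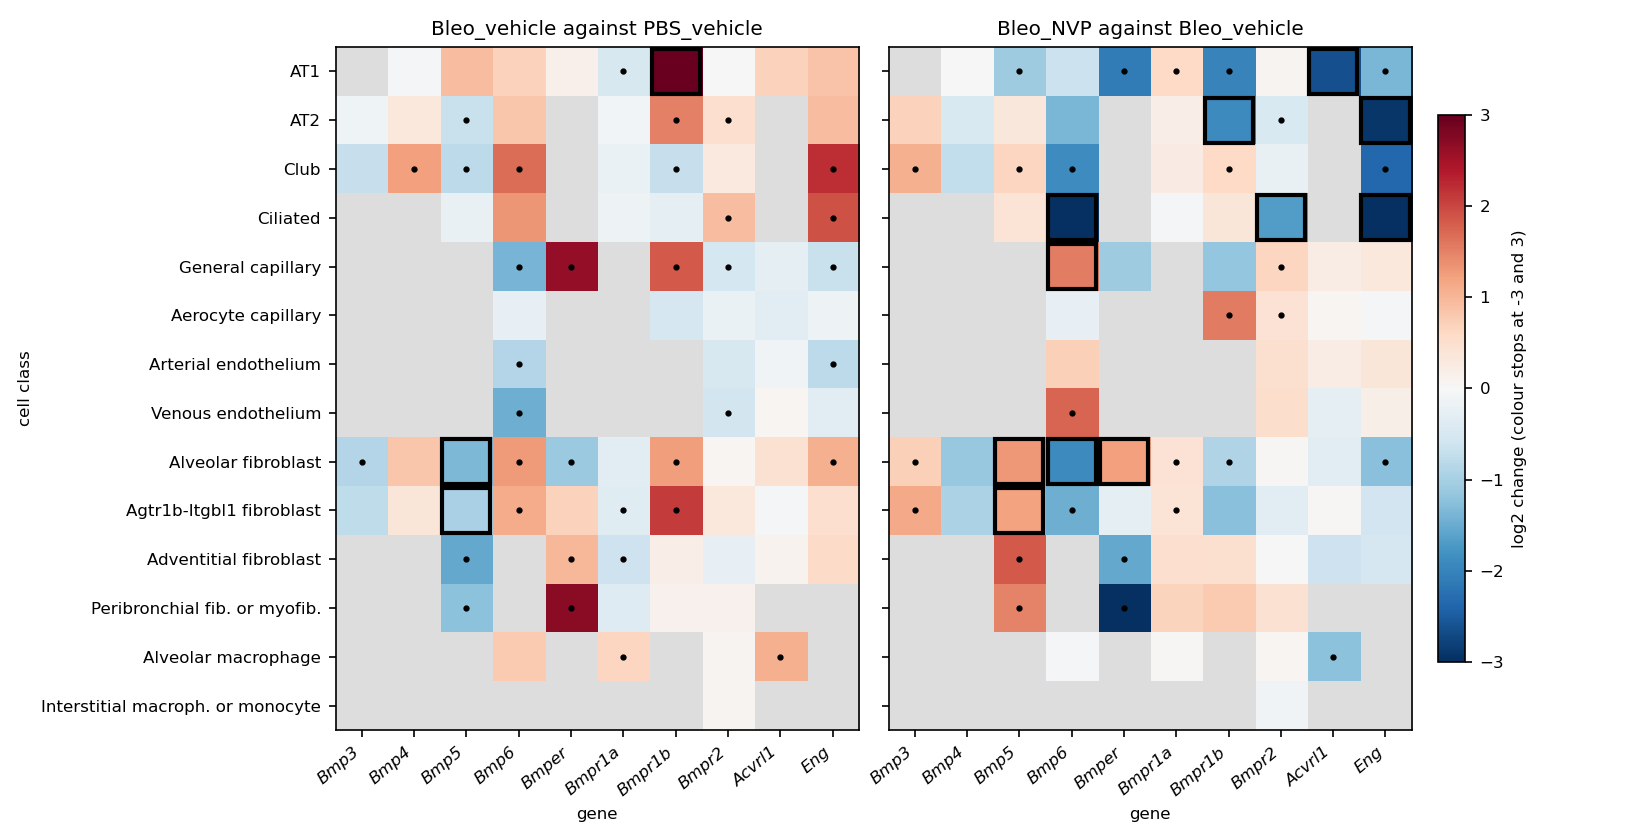
Log2 changes of the BMP members in the 14 tested classes, for Bleo_vehicle against PBS_vehicle and for Bleo_NVP against Bleo_vehicle; black boxes mark adjusted p under 0.05, dots an unadjusted p under 0.05, grey a pair that was not tested, and the colour scale stops at -3 and 3. The boxes number 3 in the first panel and 11 in the second.

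Bmp5 fell in fibroblasts of Bleo_vehicle lungs and was higher again in Bleo_NVP lungs. In alveolar fibroblasts the PBS_vehicle libraries held 886, 710 and 971 CPM, the PBS_NVP libraries 834, 881 and 849, the Bleo_vehicle libraries 201, 303 and 488, and the Bleo_NVP libraries 792, 810 and 801. The 3 Bleo_vehicle libraries lay below the other 9 without overlap. The log2 change was -1.35 ± 0.25 (SE, edgeR quasi-likelihood test, adjusted p = 0.00645) for Bleo_vehicle against PBS_vehicle and 1.30 ± 0.25 (adjusted p = 0.00749) for Bleo_NVP against Bleo_vehicle. The second call had an adjusted p of 0.0525 without Bleo_vehicle replicate 2, and the first one of 0.067 when only the 2 groups entered the fit. In the Agtr1b-Itgbl1 fibroblasts the Bmp5 levels were 976, 941 and 1107 CPM in PBS_vehicle, 992, 914 and 1245 in PBS_NVP, 472, 464 and 604 in Bleo_vehicle and 1192, 1150 and 1103 in Bleo_NVP. Again the Bleo_vehicle libraries were the 3 lowest. The changes were -0.96 ± 0.19 (adjusted p = 0.0120), lost without PBS_vehicle replicate 3 (adjusted p = 0.068), without Bleo_vehicle replicate 2 (0.067) or with only the 2 groups (0.065), and 1.2 ± 0.19 (adjusted p = 0.00214), which held in all 20 alternatives run. Classes made without Harmony were not among these alternatives, because no Agtr1b-Itgbl1 class formed there. In that clustering Itgbl1 and Agtr1b were among the leading genes of a cluster named adventitial fibroblast.

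In the other fibroblast classes Bmp5 had the same order but missed the threshold. Peribronchial fibroblasts held 2311, 1856 and 1972 CPM in PBS_vehicle, 2201 and 2035 in PBS_NVP, 356, 810 and 1221 in Bleo_vehicle and 2870 and 2151 in Bleo_NVP, with adjusted p-values of 0.21 and 0.26 for the bleomycin and inhibitor comparisons. Adventitial fibroblasts held 437, 213 and 404 CPM of Bmp5 in PBS_vehicle, 59.2 and 143 in the 2 Bleo_vehicle libraries with enough nuclei, and 498 and 326 in Bleo_NVP, with adjusted p-values of 0.074 and 0.069. In both classes the Bleo_vehicle libraries lay below those of PBS_vehicle and Bleo_NVP.

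Bmper showed the same order in alveolar fibroblasts. Its levels were 561, 834 and 1252 CPM in PBS_vehicle, 540, 869 and 1053 in PBS_NVP, 446, 317 and 471 in Bleo_vehicle and 999, 793 and 1045 in Bleo_NVP. The Bleo_vehicle libraries were the lowest, and the PBS groups spread widely. Bmper was 1.24 ± 0.32 (SE) log2 units higher in Bleo_NVP than in Bleo_vehicle (edgeR, adjusted p = 0.0343), while the change of -1.11 ± 0.32 against PBS_vehicle was not called (adjusted p = 0.0640). The Bmper call was lost in 8 of 21 alternatives, among them leaving out Bleo_NVP replicate 1, 2 or 3 (adjusted p = 0.102, 0.058 and 0.121) or Bleo_vehicle replicate 1 or 2 (0.078 and 0.147), and at 0.217 with classes made without Harmony.

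Alveolar fibroblasts consisted of a larger and a smaller cluster, and the larger held a median of 50.6% of the class in Bleo_vehicle libraries (32.3% to 70.8%) against medians of 67.9% to 76.7% in the other groups. Within that cluster alone Bmp5 changed by -1.21 (adjusted p = 0.00419) and 1.14 (adjusted p = 0.00629), and Bmper by 1.14 (adjusted p = 0.0710) between Bleo_NVP and Bleo_vehicle, an alternative chosen after seeing the data. The smaller cluster raised 8 of 10 alveolar fibroblast markers, and its leading genes were Adamtsl2, Tnc and Col13a1. Tnc is also on the marker list of fibrotic fibroblasts, a name that no cluster received. In the smaller cluster Bmp5 changed by -1.35 (adjusted p = 0.0202) and 1.40 (adjusted p = 0.0170), while Bmper changed by -0.55 (adjusted p = 0.416) and 0.82 (adjusted p = 0.166) and was not called. Markers of AT2 cells summed to 428 to 1450 CPM in the alveolar fibroblast nuclei of Bleo_vehicle, 88.9 to 206 in PBS_vehicle and 89.4 to 157 in Bleo_NVP, with 5 of 8 called higher and 4 of 8 called lower in the respective comparisons. In the Agtr1b-Itgbl1 fibroblasts the same list summed to 204 to 971 CPM in Bleo_vehicle, 106 to 208 in PBS_vehicle and 86.5 to 108 in Bleo_NVP. The part of these foreign transcripts in the Bmp5 and Bmper values was not tested.

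Bmp6 had its lowest levels in general capillaries of Bleo_vehicle lungs, with 373, 841 and 1939 CPM there, against 3196, 2428 and 3314 in PBS_vehicle, 3053, 2392 and 3760 in PBS_NVP and 3561, 2594 and 3683 in Bleo_NVP. The 3 Bleo_vehicle libraries were below all others and differed among themselves over a wide range. The change of 1.54 ± 0.39 log2 units between Bleo_NVP and Bleo_vehicle was called (SE, edgeR, adjusted p = 0.0411), and that of -1.38 ± 0.39 against PBS_vehicle was not (adjusted p = 0.0613). The Bmp6 call was lost in 6 of 21 alternatives: without PBS_vehicle replicate 1 (0.053), Bleo_NVP replicate 1, 2 or 3 (adjusted p = 0.125, 0.074 and 0.118) or Bleo_vehicle replicate 2 (0.196), and with only the 2 groups (0.097). AT2 markers in these nuclei summed to 431 to 2562 CPM in Bleo_vehicle, 245 to 467 in PBS_vehicle and 262 to 612 in Bleo_NVP, and their part in the result was not tested. Bmp6 in venous endothelium gave 1.76 ± 0.53 (adjusted p = 0.164) and in arterial endothelium 0.72 ± 0.42 (adjusted p = 0.726), neither called.

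**Figure D3:**
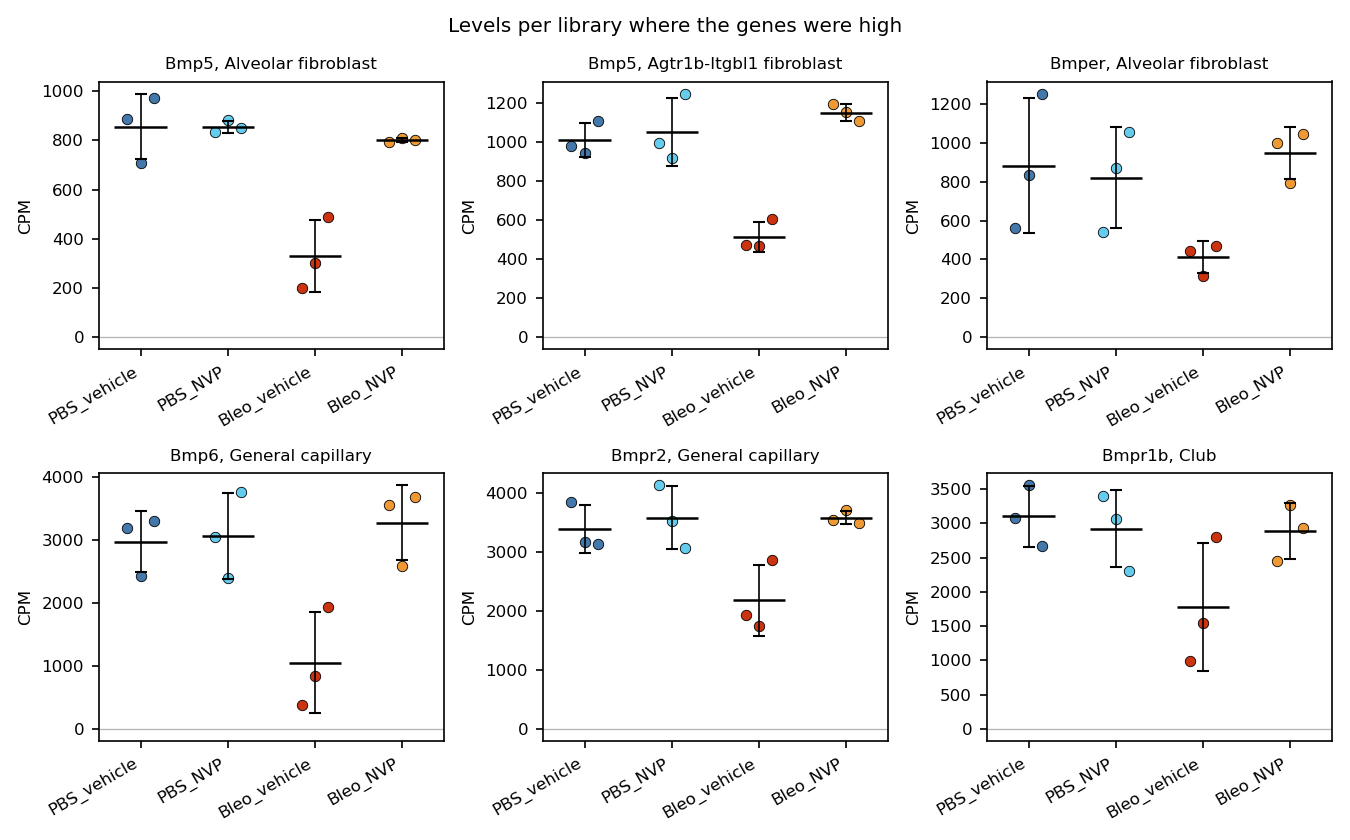
CPM of Bmp5, Bmper, Bmp6, Bmpr2 and Bmpr1b in classes where they are abundant, 1 point per library by group, with the mean (bar) and SD (error). In the Bmp5 panel for alveolar fibroblasts the Bleo_vehicle points sit at 201, 303 and 488 CPM, below the other 9 libraries.

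The remaining members did not pass in their leading classes. Bmpr1b in club cells held 3085, 3558 and 2666 CPM in PBS_vehicle, 3404, 3064 and 2302 in PBS_NVP, 988, 1540 and 2805 in Bleo_vehicle and 2451, 3266 and 2929 in Bleo_NVP, and Bleo_vehicle replicate 3 lay among the other groups (edgeR, adjusted p = 0.242 for bleomycin and 0.327 for the inhibitor). Bmpr2 in general capillaries held 3850, 3167 and 3142 CPM in PBS_vehicle, 1937, 1740 and 2859 in Bleo_vehicle and 3537, 3707 and 3495 in Bleo_NVP, without overlap but with adjusted p-values of 0.198 and 0.0975. Bmpr1a in AT1 cells gave -0.49 ± 0.17 (adjusted p = 0.123) and 0.60 ± 0.17 (adjusted p = 0.0534). Among the vessel receptors, Eng in arterial endothelium held 1129, 934 and 1119 CPM in PBS_vehicle, 482 and 630 in Bleo_vehicle and 761 and 846 in Bleo_NVP, with adjusted p-values of 0.53 and 0.84. Acvrl1 in aerocytes held 583, 468 and 525 CPM in PBS_vehicle, 379, 401 and 402 in Bleo_vehicle and 467, 385 and 432 in Bleo_NVP (adjusted p = 0.72 for bleomycin).

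Of the scarce ligands, Bmp4 in alveolar fibroblasts held 71.2, 79.8 and 27.0 CPM in PBS_vehicle, 46.6, 171 and 84.9 in Bleo_vehicle and 32.4, 70.4 and 31.3 in Bleo_NVP, and neither change passed (edgeR, adjusted p = 0.47 and 0.25). Bmp3 in club cells held 56.3, 71.3 and 57.8 CPM in PBS_vehicle, 0, 38.7 and 41.3 in Bleo_vehicle and 36.3, 117 and 62.6 in Bleo_NVP, with adjusted p-values of 0.492 and 0.157. Bmpr1a in mesothelium was not tested, since only 1 Bleo_NVP library had enough nuclei, at 761 CPM, beside 283, 538 and 490 CPM in Bleo_vehicle and 608 and 592 in PBS_vehicle.

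The 7 pairs called lower in Bleo_NVP than in Bleo_vehicle, and the pair called higher in Bleo_vehicle than in PBS_vehicle, came from classes where the gene was low. Their levels in PBS libraries were 0.396% to 6.83% of the gene's highest class for the former and 0.139% for the latter. In AT1 cells Bmpr1b held 1.37, 4.39 and 2.71 CPM in PBS_vehicle, 4.28, 8.25 and 4.03 in PBS_NVP, 8.33, 27.5 and 20.2 in Bleo_vehicle and 6.04, 6.65 and 1.66 in Bleo_NVP. The difference between Bleo_vehicle and PBS_vehicle was 2.97 ± 0.59 log2 units (SE, edgeR, adjusted p = 0.0130, from 18 to 323 UMIs over 3 libraries), a call lost without PBS_vehicle replicate 1 (0.059) and at 0.0779 in the largest AT1 cluster alone. The second AT1 cluster, where Bmpr1b changed by 2.75 (adjusted p = 0.158), held a median of 47.7% of AT1 nuclei in Bleo_vehicle (43.2% to 52.4%) and 24.1% in PBS_vehicle (10% to 25.3%). In alveolar macrophages, taken above as background, Bmpr1b held 18.9 to 45.6 CPM in Bleo_vehicle and 3.25 to 20.1 in PBS_vehicle, so its AT1 levels were within or under the background range in both groups. In AT2 cells Bmpr1b held 12.5, 34.2 and 38.5 CPM in PBS_vehicle, 75.3, 58.8 and 61.9 in Bleo_vehicle and 6.4, 22.8 and 22.9 in Bleo_NVP, with the Bleo_vehicle libraries above the rest. That Bmpr1b call (change -1.91 ± 0.50, adjusted p = 0.0319) was lost in 7 of 21 alternatives. Among them were those without Bleo_NVP replicate 1, 2 or 3 (0.141, 0.081 and 0.091) or Bleo_vehicle replicate 1 or 2 (0.056 and 0.084). Markers of club cells, where Bmpr1b was highest, summed in AT1 nuclei to 124 to 560 CPM in Bleo_vehicle, 36.6 to 298 in PBS_vehicle and 34.5 to 41.7 in Bleo_NVP, and in AT2 nuclei to 380 to 1158, 113 to 569 and 92.7 to 174 CPM. Their part in the Bmpr1b values was not tested.

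Another 4 calls were of vessel genes in epithelium, each resting on few UMIs in Bleo_NVP. In ciliated cells Bmp6 held 14, 193 and 44.8 CPM in Bleo_vehicle and 6.65, 12.6 and 0 in Bleo_NVP (change -3.84 ± 0.92, SE, edgeR, adjusted p = 0.0288, 229 against 5 UMIs), beside 80.7, 18.5 and 18.2 CPM in PBS_vehicle. Eng in ciliated cells held 56.1, 143 and 20.3 CPM in Bleo_vehicle and 13.3, 9.46 and 0 in Bleo_NVP (-3.45 ± 0.94, adjusted p = 0.0448, 148 against 5 UMIs). Eng in AT2 cells held 39.4, 46 and 18.8 CPM in Bleo_vehicle and 6.4, 4.56 and 2.86 in Bleo_NVP (-2.91 ± 0.76, adjusted p = 0.0312, 161 against 5 UMIs). Acvrl1 in AT1 cells held 3.78, 9.90 and 6.65 CPM in Bleo_vehicle and 0.863, 1.21 and 1.11 in Bleo_NVP (-2.63 ± 0.70, adjusted p = 0.0419, 110 against 5 UMIs), levels under the 21.2 CPM that alveolar macrophages averaged. In all 4 pairs the Bleo_NVP libraries were below the Bleo_vehicle libraries, while the PBS_vehicle libraries overlapped one of these groups or both. Counting alone gave 95% intervals of the ratio of Bleo_vehicle to Bleo_NVP of 4.69 to 34.5 for Bmp6, 3.00 to 22.4 and 2.23 to 16.6 for Eng in ciliated and AT2 cells, and 2.68 to 20.2 for Acvrl1, which cover counting error only.

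Each of these calls depended on single libraries. Without Bleo_vehicle replicate 2 the adjusted p was 0.286 for Bmp6 and 0.611 for Eng in ciliated cells, 0.138 for Eng in AT2 cells and 0.123 for Acvrl1 in AT1 cells, and leaving out Bleo_NVP replicate 1, 2 or 3 gave 0.088 to 0.156 over the 4 pairs. Eng in ciliated cells was also lost without Bleo_vehicle replicate 1 (0.092), PBS_NVP replicate 2 (0.051) or replicate 3 (0.052), and Acvrl1 without PBS_NVP replicate 3 (0.053) or Bleo_vehicle replicate 3 (0.051). The 16 markers of general capillaries and aerocytes summed in ciliated nuclei to 752 to 2851 CPM in Bleo_vehicle, 188 to 799 in PBS_vehicle and 246 to 441 in Bleo_NVP, with 3 of 6 tested called lower in Bleo_NVP, and Ednrb, Apln, Fibin and Rprml at 0 there. In AT2 nuclei the sums were 630 to 1407, 403 to 614 and 248 to 455 CPM, with 2 of 5 called lower and Aplnr, Apln, Fibin and Rprml at 0. In AT1 nuclei they were 829 to 928, 711 to 1083 and 634 to 700 CPM, with 0 of 6 called and Apln and Rprml at 0. Their part in the Bmp6, Eng and Acvrl1 values was not tested.

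The remaining pairs called lower were Bmpr2 in ciliated cells and Bmp6 in alveolar fibroblasts. Bmpr2 in ciliated cells held 306, 200 and 315 CPM in PBS_vehicle, 463, 635 and 251 in Bleo_vehicle and 186, 173 and 119 in Bleo_NVP (-1.68 ± 0.35, SE, edgeR, adjusted p = 0.0145, 983 against 106 UMIs). This Bmpr2 call was lost in 6 of 21 alternatives. Among them were those without Bleo_vehicle replicate 2 (0.181) or Bleo_NVP replicate 1, 2 or 3 (0.057, 0.077 and 0.082). The capillary markers given above for ciliated nuclei moved the same way, and capillaries are where Bmpr2 was highest; their part in this value was not tested. Bmp6 in alveolar fibroblasts held 11, 12.8 and 8.37 CPM in PBS_vehicle, 26.2, 39.9 and 14 in Bleo_vehicle and 7.71, 7.04 and 5.52 in Bleo_NVP (-1.90 ± 0.48, adjusted p = 0.0293, 140 against 21 UMIs). This Bmp6 call was lost in 8 of 21 alternatives. Among them were those without Bleo_vehicle replicate 2 (0.196) or Bleo_NVP replicate 1, 2 or 3 (0.085, 0.085 and 0.131), and the largest cluster alone (0.292). The capillary markers in these fibroblasts summed to 2826 to 3783 CPM in Bleo_vehicle, 4061 to 5132 in PBS_vehicle and 4676 to 4854 in Bleo_NVP, far above their sums in AT2 nuclei. Of 10 tested, 2 were called higher in Bleo_vehicle than in PBS_vehicle and 1 lower in Bleo_NVP than in Bleo_vehicle, and Aplnr, Apln and Rprml were at 0 in Bleo_NVP. The part of capillary transcripts in the Bmp6 values was not tested.

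**Figure D4:**
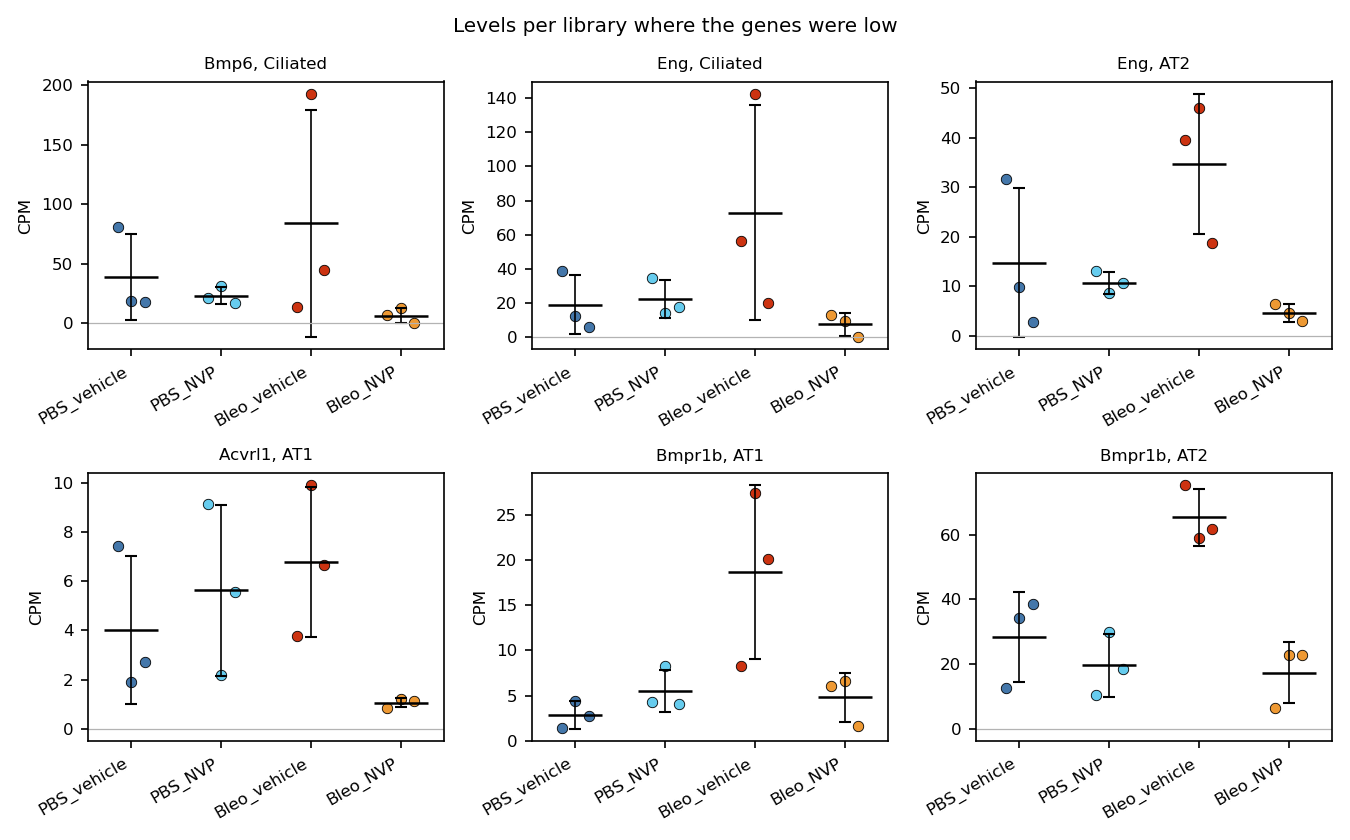
CPM per library, by group, of Bmp6 and Eng in ciliated cells, Eng in AT2 cells, Acvrl1 in AT1 cells, and Bmpr1b in AT1 and AT2 cells, all classes where the gene is low, with the mean (bar) and SD (error). Bleo_vehicle replicate 2 gives the highest point in the Bmp6 and Eng ciliated panels, 193 and 143 CPM.

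The tested pairs were split at a PBS level of 10% of the gene's highest class, a division chosen after the values were seen. A pair that is low in the PBS libraries can pass the count filter through the Bleo_vehicle libraries, so the division fixes part of the direction, and the shares below are descriptions. Among the pairs below it, 88.9% of 36 member pairs and 85.4% of the 6458 pairs of all genes were higher in Bleo_vehicle than in PBS_vehicle, and 16.7% and 16.2% were higher in Bleo_NVP than in Bleo_vehicle, so the members stood near the background. Among the pairs at or above it, 25.5% of 51 member pairs and 45.4% of the 69271 pairs of all genes were higher in Bleo_vehicle than in PBS_vehicle, and 76.5% and 52.4% were higher in Bleo_NVP than in Bleo_vehicle. These comparisons share the Bleo_vehicle libraries.

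The rest of the pathway was read from a list of 50 genes. None of the 10 further ligands passed the filter in any class, with 254 UMIs for Bmp2, 119 for Bmp7 and 0 for Bmp10, so Bmp3, Bmp4, Bmp5 and Bmp6 were the listed BMP ligands with tests. Of the list, 28 genes were tested in at least 1 class, giving 224 pairs of gene and class. Each comparison across Bleo_vehicle called 6 of them (2.68%, against backgrounds of 3.1% and 3.61%), 3 higher and 3 lower. The comparisons of PBS_NVP with PBS_vehicle and of Bleo_NVP with PBS_NVP called 0 of them by edgeR. Of the 7 targets tested, Smad6, an inhibitory Smad, was highest in arterial endothelium at 2284 CPM, as was Smad7 at 328 CPM, Tmem100 in general capillaries at 485 CPM and Id1 in aerocytes at 44.8 CPM. The others were highest outside the vessels, Id2 in T or NK lymphocytes at 44.3, Id3 in mesothelium at 27.8 and Atoh8 in peribronchial fibroblasts at 24.9 CPM.

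Antagonists and extracellular regulators gave 4 calls in 40 pairs in each comparison across Bleo_vehicle, 2 higher and 2 lower. This was 10%, against backgrounds of 3.1% and 3.61%. Chrdl1, a chordin-like BMP antagonist, held 57.5, 32.4 and 34.4 CPM in alveolar fibroblasts of PBS_vehicle, 5.83, 14.2 and 22.4 in Bleo_vehicle and 67.8, 52.1 and 65.3 in Bleo_NVP. It changed by -1.30 ± 0.30 (SE, edgeR, adjusted p = 0.0204) and 1.89 ± 0.31 (adjusted p = 0.00249), the order of Bmp5 and Bmper in the same class. Other regulators moved the opposite way. Crim1, a membrane protein that binds BMPs, held 12.5, 11.9 and 6.78 CPM in AT1 cells of PBS_vehicle, 70.4, 67.1 and 41.1 in Bleo_vehicle and 12.1, 9.06 and 8.32 in Bleo_NVP (2.50 ± 0.35, adjusted p = 0.00186, and -2.59 ± 0.36, adjusted p = 0.00213). Nbl1, a DAN family antagonist, did so in alveolar fibroblasts (1.18 ± 0.32, adjusted p = 0.0440, and -1.27 ± 0.34, adjusted p = 0.0385). Both Crim1 calls and the inhibitor call of Chrdl1 held in each alternative run on the whole class or its largest cluster. In the second AT1 cluster Crim1 changed by 0.97 (adjusted p = 0.547) and -1.87 (adjusted p = 0.215), and neither was called. Crim1 was low in AT1 cells, with 93 UMIs in PBS_vehicle, 758 in Bleo_vehicle and 44 in Bleo_NVP, of 45979 over all named classes. AT1 cells held 39385343 of the 152683111 UMIs of these classes. The part of foreign transcripts in the AT1 values of Crim1 was not tested. The bleomycin call of Chrdl1 was lost without PBS_vehicle replicate 1 (0.104) or Bleo_vehicle replicate 2 (0.115), and without the latter library the Nbl1 calls had adjusted p-values of 0.203 and 0.157. The Nbl1 calls were also lost without single Bleo_NVP or PBS_vehicle libraries.

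Of the receptors and coreceptors in the list, 1 of 71 pairs was called in each comparison across Bleo_vehicle (1.41%, against backgrounds of 3.1% and 3.61%). Tgfbr3, the coreceptor betaglycan, was higher in alveolar macrophages of Bleo_vehicle than of PBS_vehicle (2.42 ± 0.58, SE, edgeR, adjusted p = 0.0195). Rgmb was higher in club cells of Bleo_NVP than of Bleo_vehicle (1.18 ± 0.33, edgeR, adjusted p = 0.0488). The Smads and Smurfs gave 1 call in 68 pairs between Bleo_vehicle and PBS_vehicle (1.47%, background 3.1%) and 0 in the inhibitor comparison. That call was Smad9, lower in AT1 cells of Bleo_vehicle (-1.55 ± 0.39, edgeR, adjusted p = 0.0384). Smad9 held 42.25, 16.95 and 21.02 CPM in PBS_vehicle, 3.03, 12.8 and 9.55 in Bleo_vehicle and 23.3, 19.3 and 26.6 in Bleo_NVP. The targets gave 1 call in 45 pairs between Bleo_NVP and Bleo_vehicle (2.22%, background 3.61%) and 0 between Bleo_vehicle and PBS_vehicle. That call was Smad6, lower in alveolar macrophages of Bleo_NVP (-2.75 ± 0.66, edgeR, adjusted p = 0.0271). All 4 calls were lost without single libraries of both groups compared, with an adjusted p of 0.161 for Tgfbr3 and 0.165 for Smad9 without PBS_vehicle replicate 1, 0.280 for Rgmb without Bleo_vehicle replicate 2 and 0.156 for Smad6 without Bleo_NVP replicate 2. The Rgmb call was lost in 15 alternatives and kept in 6. Those of Tgfbr3, Smad9 and Smad6 were lost in 6, 8 and 6 and kept in 14, 13 and 14. AT2 markers in alveolar macrophage nuclei summed to 517 to 1456 CPM in Bleo_vehicle, 196 to 235 in PBS_vehicle and 122 to 219 in Bleo_NVP. The sums of the capillary markers went the other way, at 1047 to 1921, 2452 to 2672 and 1867 to 2663 CPM in the same groups. Of 7 capillary markers tested, 1 was called higher in Bleo_vehicle than in PBS_vehicle and 1 lower in Bleo_NVP than in Bleo_vehicle. The part of either marker list's cells in the Tgfbr3 and Smad6 values was not tested.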

How the data were processed

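The authors prepared 10x 3' libraries, aligned reads to mm10 with Cell Ranger (7.2.0 per the file headers; 7.0 in the submitters' processing notes) and deposited UMI counts per gene and nucleus as whole numbers without normalization. Nuclei needed at least 200 and at most 6000 genes and at most 5% mitochondrial UMIs, which left 47319; 2708 doublets (5.72%) were removed with scrublet scores. The study's DoubletFinder and DecontX steps were not run here, so free RNA was not subtracted. Nuclei were clustered with scanpy 1.11.5 after Harmony, with the members left out of the clustering genes, and clusters were named from marker lists; 1830 nuclei stayed unnamed. UMIs were summed per class and library (at least 20 nuclei), passed through filterByExpr, given TMM factors and tested with edgeR 4.0.16 (robust quasi-likelihood, all libraries of a class in 1 fit, two-sided); 2247 to 9245 genes were tested per class. DESeq2 1.42.0 was an alternative. The edgeR step was tested on simulated data.

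The 10 members were named whatever their values, with full values in the leading class and in each class where a member was called; other pathway genes were named where called, except for 1 that is not reported here. The members and lists were chosen with earlier results of these data known. Each library is 1 mouse, so tests measure the spread between mice. In PBS_NVP against PBS_vehicle all 30 correlations of same-numbered samples were over 0.1 (0.119 to 0.639), so the replicate numbers pair the samples there. Promoter stretches came from RefSeq, where 8 of 10 members had an entry, and coordinates from GENCODE M21, which matched 31011 gene identifiers.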

Additional observations from a re-analysis of the deposited data

How the results depend on the processing

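The alternatives were computed for the 14 calls of members, none of which changed direction; 217 of the recomputed calls were kept and 68 were lost, and the cause was not tested. The 3 calls between Bleo_vehicle and PBS_vehicle became 25 without the filter on low counts, 16 with the replicate block, 1 with only the 2 groups, 6 with classes made without Harmony and 6 with DESeq2; leaving out 1 library gave 2 to 30, the latter without Bleo_vehicle replicate 3. The 11 calls between Bleo_NVP and Bleo_vehicle became 31 without the filter, 18 with the replicate block, 4 with only the 2 groups and 4 with the stricter nuclei; leaving out 1 library gave 1 to 26, with 2 without any of the Bleo_NVP libraries, 1 when Bleo_vehicle replicate 2 was left out and 26 when replicate 3 of that group was. The interaction, 0 in the report, gave 12 without the filter, 6 with the replicate block, 1 without Harmony and 2 with DESeq2, and 0 to 8 when 1 library was left out (8 without Bleo_vehicle replicate 3). In the comparisons that use Bleo_vehicle the replicate numbers paired the samples little. Of 30 same-number correlations 3 and 2 were over 0.1, and 26 and 29 of 60 samples correlated best with their own number. Between Bleo_NVP and PBS_NVP the pairing was partial. There 16 of 30 correlations were over 0.1, with a range of -0.098 to 0.264, and 35 of 60 samples correlated best with their own number. PBS_NVP against PBS_vehicle and Bleo_NVP against PBS_NVP gave 0 throughout, the replicate block included. Calls over all genes moved with the setting too. Between Bleo_vehicle and PBS_vehicle 2347 of 75729 pairs were called in the main fit, and 3926 of 75729 with the replicate block. With only the 2 groups it was 1251 of 81189, and without Bleo_vehicle replicate 3 it was 6991 of 79843. Between Bleo_NVP and Bleo_vehicle these were 2733 of 75729, 4925 of 75729, 1635 of 66088 and 7341 of 79843. Without the filter they were 6821 and 6684 of 261794. The 3 leading classes that passed became 5 with the stricter nuclei and 0 to 2 with 1 library left out, where fewer libraries raise the smallest p. Genes low in a class rest on few UMIs, and depth limits those values most.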
